A study of Mus musculus with 46 samples.

Results

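The genes described here encode the cytosolic and mitochondrial chaperones of the mouse and their co-chaperones. They were taken from the gene count table by symbol: every Hsp gene of the HspA to HspE and HspH families, every Dnaj gene, the Cct subunits of the chaperonin TRiC, the genes Bag1 to Bag6, and Tcp1, St13, Stip1, Hsf1 and Hsf2, without the endoplasmic reticulum (ER) chaperones Hspa5, Hsp90b1, Dnajb9, Dnajb11 and Dnajc3. The rule gave 84 of the 31854 genes of the table. No gene with the symbol Cct8, another subunit of TRiC, was among them, so TRiC is not complete here. The rule also kept at least 7 genes whose proteins sit in the ER or its membrane (Dnajc1, Dnajc10, Dnajc16, Dnajc18, Dnajb12, Dnajb14 and Hspa13), so the name cytosolic and mitochondrial does not hold for these.

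The RNA was obtained by translating ribosome affinity purification (TRAP), in which a GFP-tagged ribosomal subunit, L10a, is pulled down with the RNA bound to it. All mice carried the NuTRAP allele, whose stop cassette between loxP sites is removed by Cre, together with 1 of 2 Cre drivers, AgRP-IRES-Cre in the AgRP line and POMC-IRES-Cre in the POMC line, so the tag marks every cell in which that Cre was active at any time. AgRP neurons drive feeding and POMC neurons restrain it, and both lie in the arcuate nucleus (ARC) of the hypothalamus. Each library held the RNA of 4 pooled ARCs of male mice aged 6 to 11 weeks. The mice were fed ad libitum and given PBS, fasted overnight and given PBS, or fasted overnight and given leptin, the satiety hormone of fat tissue. For the AgRP line the fast lasted 18 to 20 h, the leptin dose was 5 mg/kg and tissue was taken 3 h after the injection. There were 3 fed, 4 fasted and 4 leptin libraries of the AgRP line and 2 libraries per state of the POMC line, with 25581041 to 54511107 and 30704075 to 53217053 reads counted on genes. Open chromatin was measured by ATAC-seq in sorted AgRP nuclei, with 2 libraries per state and 8263234 to 17190963 reads counted in peaks.

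Markers of the labelled neurons were present in every library. The summed level of Agrp, Npy and Corin was 759.9 to 5340 CPM (counts scaled to a common library total) in the AgRP libraries and 18.6 to 83.8 CPM in the POMC libraries, and that of Pomc, Cartpt and Prdm12 was 56.3 to 97.7 CPM and 1554 to 2920 CPM. All 6 astrocyte markers sought (Gfap, Aqp4, Aldh1l1, Slc1a2, Slc1a3 and Gja1) were also present in every library. Their summed level was 20988 to 26733 CPM in the AgRP libraries numbered 4 and 2780 to 4459 CPM in the other AgRP libraries, and 24310 to 27928 CPM in the POMC libraries numbered 2 against 5863 to 6821 CPM in those numbered 1. These libraries stood apart in each state, and results are given below without them where that changed a call.

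Chaperones keep proteins folded. Hsp70 proteins bind unfolded stretches of a protein in cycles driven by ATP, J proteins (the Dnaj genes) bring clients to Hsp70 and start its ATPase, and nucleotide exchange factors such as the Bag and Hsp110 proteins end the cycle. Hsp90 completes the folding of kinases and steroid receptors, TRiC folds actin and tubulin inside a closed chamber, small heat shock proteins hold unfolded proteins without ATP, and Hsp60 with its lid Hsp10 folds proteins inside mitochondria. Heat shock factor Hsf1 drives many of these genes by binding heat shock elements, alternating repeats of the unit GAA and its reverse complement TTC. Neurons live long and do not divide, and neurons of the ARC release large amounts of neuropeptide when they fire.

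Heat shock elements were looked for in the promoters, since Hsf1 drives many of these genes through them. RefSeq promoters (GRCm38.p6, 250 bases before to 50 after each start) were at hand for 68 of the 84 genes, which have 88 promoters between them. The perfect triple unit, searched on both strands as GAANNTTCNNGAA and TTCNNGAANNTTC, was in 6 of the 88 promoters (6.82%) and in 198 of 32851 promoters of all genes (0.603%). The 6 promoters belonged to 4 genes. Hspd1 and Hspe1, which encode Hsp60 and Hsp10, lie head to head and share 1 element, in which overlapping matches make up a run of 4 units. The 3 sites are shown 5′ to 3′ with the unit letters in capitals:
Hspd1 and Hspe1, chr1:55088053-55088082, plus strand: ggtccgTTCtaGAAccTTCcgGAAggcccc
Dnajb6, chr5:29735844-29735873, plus strand: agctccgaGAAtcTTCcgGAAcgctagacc
Hsph1, chr5:149636279-149636308, minus strand: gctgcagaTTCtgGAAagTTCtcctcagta
The ER stress element, searched as CCAAT followed by any 9 bases and CCACG, was in none of the 88 promoters and in 0.119% of all promoters. A match names letters in a window and not a bound site.

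Hspa1a and Hspa1b, the stress-inducible Hsp70 genes, are near copies of each other on chromosome 17. Their coding sequences of 1923 and 1926 bases matched at 1916 of 1926 aligned positions (99.5%), so reads from most of the coding sequence cannot be assigned to 1 copy and the values of each are uncertain. The 250 bases before their starts differed at 3 positions (C44T, T47C and T249G, with the base of Hspa1a first and positions counted from the 5′ end). The stretches are shown with the differing letters in capitals:
Hspa1a, chr17:34972157-34972406, minus strand: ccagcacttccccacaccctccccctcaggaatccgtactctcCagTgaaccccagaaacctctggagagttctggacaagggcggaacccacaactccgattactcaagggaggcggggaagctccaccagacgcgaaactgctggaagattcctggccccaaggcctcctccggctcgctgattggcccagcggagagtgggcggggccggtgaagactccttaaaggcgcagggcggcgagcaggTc
Hspa1b, chr17:34959239-34959488, minus strand: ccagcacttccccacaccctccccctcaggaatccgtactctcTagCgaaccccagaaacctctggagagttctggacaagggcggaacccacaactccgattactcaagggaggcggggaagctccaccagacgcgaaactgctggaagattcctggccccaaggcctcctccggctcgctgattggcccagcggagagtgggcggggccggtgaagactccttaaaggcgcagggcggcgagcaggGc

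Dnajb5, a class B J protein of the cytosol, and Hspb8, a small heat shock protein that works with Bag3, were the genes called in fasted AgRP neurons. The perfect triple unit was in the promoters of 4 of the 68 genes, and not in those of Hspa1a and Hspa1b. Imperfect forms were not searched, so a promoter without a match can still hold a heat shock element. The stretches before the starts of Dnajb5 and Hspb8, covered by ATAC-seq peaks, did not hold it either:
Dnajb5, chr4:42949617-42949813, plus strand: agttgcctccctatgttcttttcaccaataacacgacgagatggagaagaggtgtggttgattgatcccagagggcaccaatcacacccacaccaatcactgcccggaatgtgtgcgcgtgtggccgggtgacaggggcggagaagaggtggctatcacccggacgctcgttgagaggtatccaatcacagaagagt
Hspb8, chr5:116422865-116423114, minus strand: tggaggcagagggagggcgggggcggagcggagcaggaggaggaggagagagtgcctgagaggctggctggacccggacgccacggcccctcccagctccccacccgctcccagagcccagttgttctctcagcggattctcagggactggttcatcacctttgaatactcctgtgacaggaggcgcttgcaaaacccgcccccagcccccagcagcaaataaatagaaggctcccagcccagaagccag

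Levels differed widely among the chaperones. Per kilobase of counted exon, Hsp90ab1, the constitutive Hsp90, was the highest in both neuron types, at 533 CPM per kb in AgRP and 486 CPM per kb in POMC libraries (means over the libraries). Hspa8, the constitutive Hsp70, followed at 182 and 150.1 CPM per kb. Dnajc5, the cysteine string protein of synaptic vesicles, was at 158 and 191 CPM per kb, above Hspa8 in POMC and below it in AgRP libraries. In AgRP libraries Hsp90ab1 alone held 18.1% of the summed level of the group per kb, the 5 highest genes 37.2% and the 10 highest 53.6%. The TRiC subunits Cct7, Cct5, Cct2 and Cct6a and Dnajc6 (auxilin, which uncoats clathrin vesicles) were among those 10. The stress-inducible genes were near the bottom of the tested range, with Hspa1a at 2.65 and Hspa1b at 1.42 CPM per kb in AgRP libraries.

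**Figure D1:**
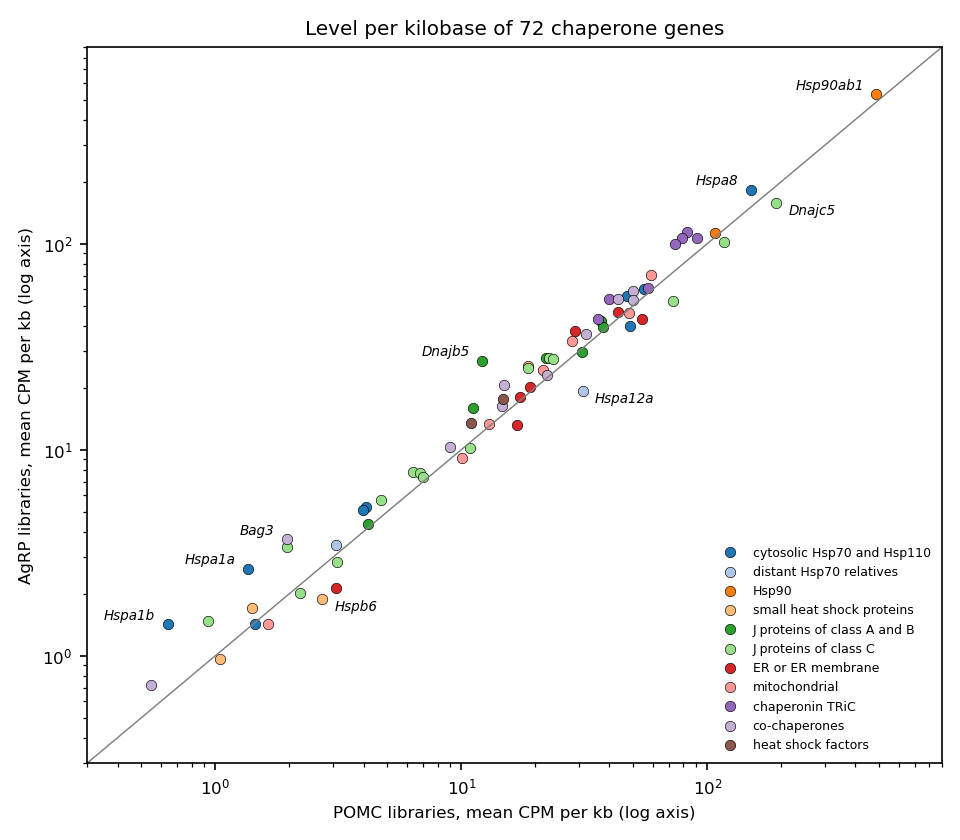
Mean level per kilobase of 72 chaperone genes in POMC libraries (horizontal, CPM per kb, log axis) and AgRP libraries (vertical, same unit and axis), with 1 point per gene coloured by role and the line of equal level in grey. Hsp90ab1 stands alone at the top right, and Hspa1a and Hspa1b lie toward the lower left, above the line.

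The counted stretch of a gene was not always its whole exon length, because the annotation had been trimmed where transcripts overlap. The median member kept 84.7% of its exon bases, and 16 of the 84 kept less than 50%. Dnaja1, a major cytosolic J protein, had 79 bases counted beside 8629 exon bases (0.916%), so its level is not read here. Of the 84 genes, 72 passed a mean of 1 CPM and were tested in each RNA comparison, and 12 did not (Dnaja1, Dnajb3, Dnajb7, Dnajb13, Dnajc5b, Dnajc5g, Dnajc22, Hspb3, Hspb7, Hspb9, Cct6b and Cct8l1). Counts and medians below are over those 72.

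The first comparison asked what fasting does to these genes in AgRP neurons. Dnajb5 and Hspb8 rose, at a false discovery rate (FDR) under 0.05 and a log2 ratio over 0.5, and no member fell. Genes higher in fasted libraries made up 2.82% of all genes tested and genes lower 1.07% (378 and 143 genes, or 148 and 90 with library size alone as the scale), against 2 and 0 of the 72 chaperones. The median log2 ratio of the chaperones was 0.060, beside 0.017 over all genes. In pulled-down RNA, more cells of a type and more RNA per cell cannot be told apart.

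Dnajb5 was at 51.9, 50.3 and 54.1 CPM in the fed libraries, 86.4, 100.0, 102 and 93.3 CPM in the fasted and 63.1, 93.7, 93.1 and 70.5 CPM in the leptin libraries. Every fasted library was above every fed library, and 2 of the 4 leptin libraries lay between the groups. The fed mean was 52.1 ± 1.94 CPM (SD, n = 3) and the fasted mean 95.4 ± 7.08 CPM (SD, n = 4), a 1.85-fold rise (log2 0.88, SE 0.139, FDR 0.00462, edgeR), and the call held without any single library. It was the only chaperone called with every way of scaling and testing that was tried.

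Hspb8 was at 37.8, 32.3 and 32.0 CPM fed, 55.9, 45.1, 58.5 and 52.0 CPM fasted and 46.6, 43.2, 62.9 and 44.3 CPM after leptin. The fed libraries lay below all other AgRP libraries. The rise was 1.56-fold (log2 0.65, SE 0.137, FDR 0.0205), but the call was lost in 4 of 11 fits that left out 1 library (fasted 1, fasted 3, fed 3 or fed 4, with an FDR up to 0.102) and with library size alone (FDR 0.128). Its partner Bag3 was at 11.0, 9.26 and 8.89 CPM fed and 11.1, 10.3, 11.3 and 9.92 CPM fasted, with overlapping libraries and a log2 ratio of 0.14 (SE 0.141, FDR 0.668).

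Hspa1a and Hspa1b had log2 ratios as large as those of the called genes but did not pass the threshold. Hspa1a was at 6.61, 3.79 and 4.93 CPM fed and 10.9, 9.24, 8.93 and 7.80 CPM fasted (log2 0.86, SE 0.249, FDR 0.0750). Hspa1b was at 3.38, 2.46 and 1.75 CPM fed and 6.09, 5.07, 5.91 and 4.09 CPM fasted (log2 1.06, SE 0.337, FDR 0.102). In both, the lowest fasted library was above the highest fed library. Same-numbered AgRP libraries deviated together, and with the number as a block 6 chaperones were called higher, where 4.4% of all genes were: Dnajb5 and Hspb8, Hspa1a at log2 0.90 (FDR 0.00329), Hspa1b at 1.10 (FDR 0.00120), Dnajc21 at 0.52 (FDR 0.00109) and Dnajc25 at 0.52 (FDR 0.0320). Without the libraries numbered 4 the called genes were Dnajb5, Hspa1a, Hspa1b and Dnajc21, and Hspb8 had an FDR of 0.0686. In that fit 404 of all 13419 genes were called higher.

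**Figure D2:**
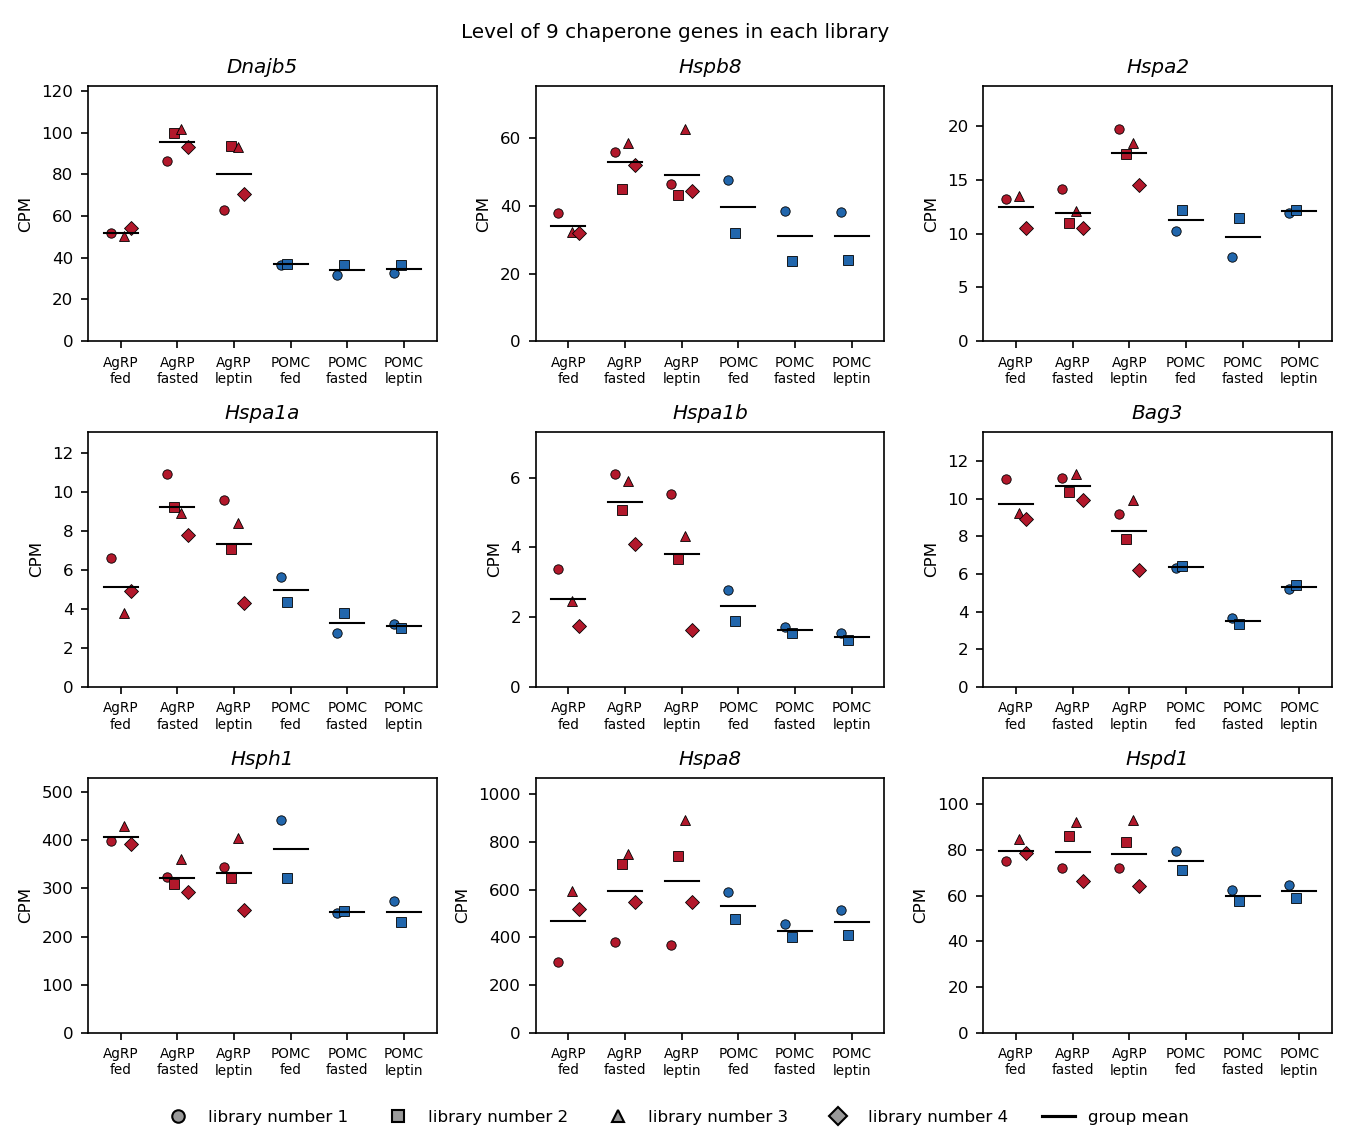
Level (CPM, linear axis from 0) of 9 chaperone genes in each of the 17 RNA libraries, AgRP in red and POMC in blue, with the library number as the marker shape and the group mean as a bar. Dnajb5 is 86.4 to 102 CPM in fasted AgRP libraries and 50.3 to 54.1 CPM in fed ones, and Hspa8 varies with the library number within each AgRP state.

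Among the other Hsp70 genes, Hspa8 was at 299, 594 and 517 CPM fed and 381, 707, 749.5 and 549 CPM fasted, with a log2 ratio of 0.35 whose SE was 0.338. Library 1 was the lowest in each state and the groups overlapped. Hsph1, an Hsp110 exchange factor, was at 399, 429.8 and 393 CPM fed and 324, 309, 362 and 293 CPM fasted, with every fasted library lower, and did not pass the threshold (log2 -0.33, SE 0.129, FDR 0.185). Hsp90ab1 and Hsp90aa1 had log2 ratios of 0.041 (SE 0.226) and -0.14 (SE 0.209).

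The J proteins beyond Dnajb5 gave smaller ratios. Dnajb1, the heat-inducible partner of Hsp70, was at 85.3, 68.3 and 83.1 CPM fed and 91.6, 92.9, 90.8 and 88.9 CPM fasted (log2 0.22, FDR 0.364). Dnajc21, which acts in the making of the large ribosomal subunit, was at 12.0, 12.4 and 9.74 CPM and 16.4, 17.7, 19.4 and 13.1 CPM, without overlap (log2 0.55, FDR 0.0854). Of the genes of ER proteins kept by the rule, Dnajc10, a reductase of the ER, had an FDR of 0.0377 with a log2 ratio of 0.39, short of 0.5, and Hspa13 had a log2 ratio of 0.41 (FDR 0.100). The levels of Dnajc10 were 152, 173 and 149.9 CPM fed and 206, 212, 224 and 184 CPM fasted.

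The folding machines of the cytosol and mitochondria showed no call. All 7 tested TRiC subunits had log2 ratios above 0, from 0.059 to 0.25 with a median of 0.20, and none passed the test. The largest was that of Cct7, at 267, 298 and 247 CPM fed and 325, 339, 371 and 243 CPM fasted (SE 0.153, FDR 0.433), where fasted library 4 was below every fed library. Hspd1 was at 75.2, 84.7 and 78.5 CPM and 72.3, 86.0, 92.1 and 66.4 CPM (log2 0.0036, SE 0.135) and its partner Hspe1 had a log2 ratio of 0.028 (SE 0.169). The median of the 7 mitochondrial members was 0.028, and of the 10 co-chaperones 0.050. Hsf1 and Hsf2 had ratios of -0.011 and 0.13. At an unadjusted p under 0.05 there were 10 of 72 chaperones higher and 3 lower, where 12.4% and 6.92% of all genes were, and with the replicate block 19 and 11, where 21.9% and 15.7% were.

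Other measures moved with the state. The summed level of 8 immediate early genes was 330.8 to 371 CPM in fed, 506 to 572 CPM in fasted and 467.6 to 579 CPM in leptin AgRP libraries. Of these 8 genes, 7 were higher and 1 lower after the fast (median log2 ratio 0.83, 4 called higher). For leptin against fasted 1 was higher and 7 lower (-0.54), with 1 called higher and 3 called lower, which the sum does not show. The summed level of the AgRP neuron markers was 759.9 to 1377 CPM fed and 1684 to 5074 CPM fasted. Markers of other cells did not all move the same way. After the fast 3 of the 4 tanycyte and ependymal genes tested were higher and 1 lower (median log2 ratio 0.23). Of the 4 endothelial genes 2 were higher and 2 lower (-0.042), and none of either list was called. Levels were lower in all 6 astrocyte genes (-0.24), 6 of 7 oligodendrocyte genes (-0.42) and all 4 microglia genes tested (-0.59). In these 3 lists none was called without the block and 1 of each was called lower with it. Their summed levels overlapped between fed and fasted libraries, at 3810 to 20988 and 2780 to 26733 CPM for astrocytes, 503 to 791 and 440.6 to 729 CPM for oligodendrocytes, and 23.2 to 41.3 and 17.5 to 39.3 CPM for all 6 microglia genes. The part of these measures in the rise of Dnajb5 and Hspb8 was not tested.

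**Figure D3:**
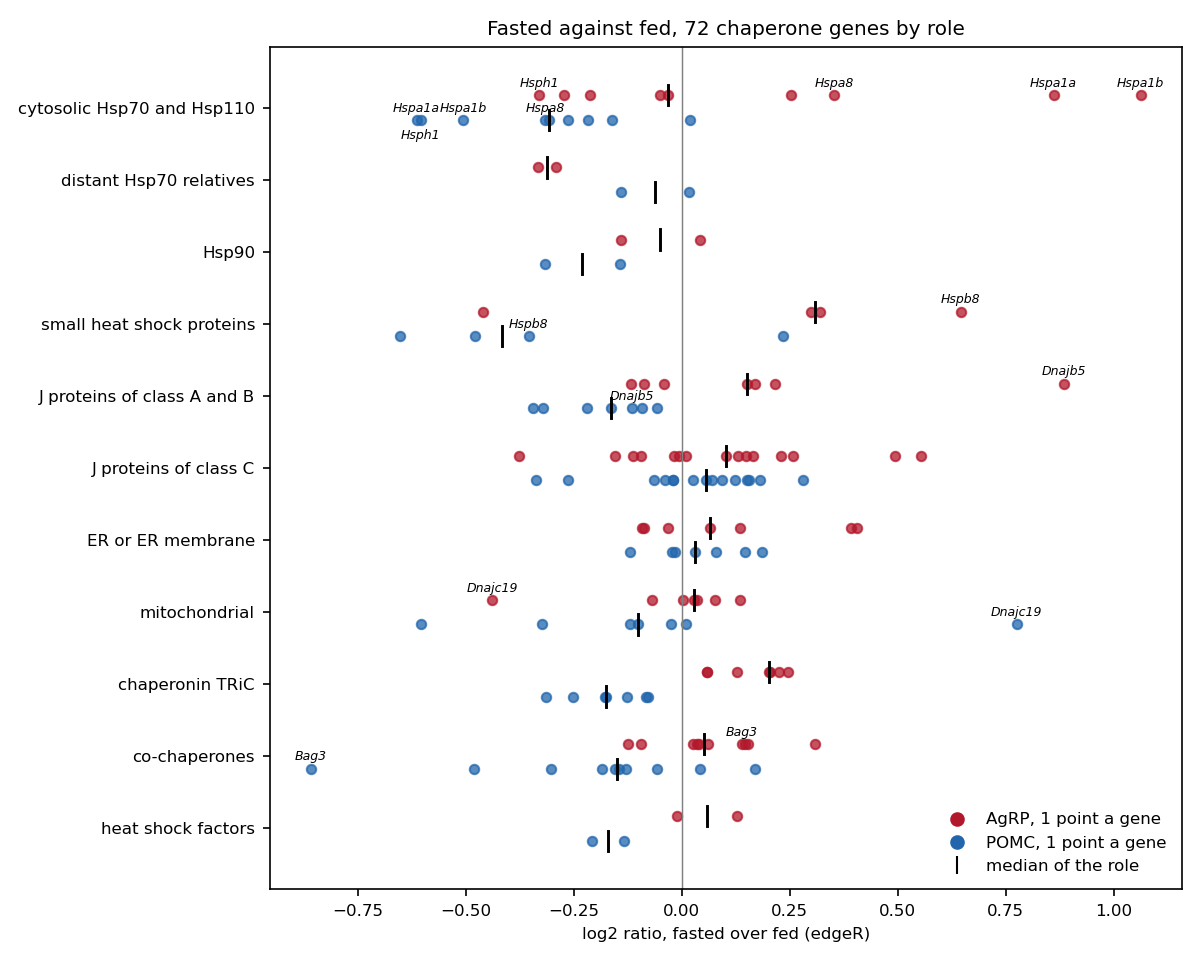
Log2 ratio of fasted over fed (edgeR, horizontal) of each of 72 chaperone genes, grouped by role on the vertical axis, with AgRP in red, POMC in blue and the median of each role as a black tick. The 7 TRiC subunits lie to the right of 0 in AgRP and to the left in POMC libraries, and Dnajb5, Hspa1a and Hspa1b lie furthest right in AgRP libraries.

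Leptin given to fasted mice changed 1 chaperone in AgRP neurons. Hspa2, an Hsp70 best known from male germ cells, was at 13.3, 13.5 and 10.6 CPM fed, 14.2, 11.0, 12.1 and 10.5 CPM fasted and 19.8, 17.5, 18.4 and 14.5 CPM after leptin. The leptin libraries were all above the others, although leptin library 4 exceeded fasted library 1 by little. It rose 1.47-fold against fasted (log2 0.55, SE 0.119, FDR 0.0368), where 1.19% of all genes were called higher and 0.634% lower. The call was lost in 8 of 11 fits that left out 1 library (FDR up to 0.119), with library size alone as the scale (FDR 0.370), and without the filter on low counts.

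Dnajb5 had a log2 ratio of -0.25 (SE 0.126, FDR 0.638) for leptin against fasted and Hspa1a one of -0.33 (SE 0.224), neither past the test. Bag3 was at 9.17, 7.83, 9.92 and 6.22 CPM after leptin (log2 -0.36, SE 0.130, FDR 0.308). The median over the chaperones was -0.015, beside -0.014 over all genes. Against fed mice, with which the first comparison shares its controls, the leptin libraries were higher in Dnajb5 (log2 0.63, FDR 0.0191), Hspb8 (0.54, FDR 0.0341) and Hspa2 (0.50, FDR 0.0371), with 3.73% of all genes called higher and 1.75% lower. Each of the 3 calls was lost without fed library 1, 3 or 4 or leptin library 3, and with library size alone. With the replicate block Hspa1a and Hspa1b were called as well, 5 genes in all, where 5.34% of all genes were called higher.

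In POMC neurons no chaperone passed the test in any comparison of the states, nor did any of the 13412 genes by edgeR without a block (edgeR with the replicate block called 3, 8 and 44 genes and DESeq2 3, 10 and 7 genes for fasted against fed, leptin against fasted and leptin against fed, none of them a chaperone). Of the 72 chaperones, 52 had a log2 ratio below 0 in fasted against fed mice, with a median of -0.12 beside 0.0032 over all genes. At an unadjusted p under 0.05, 7 were lower and 1 higher, where 1.1% and 1.01% of all genes were. The 7 were Bag3, Hsph1, St13, Stip1, Hspa1a, Hspe1 and Hspd1, and the 1 was Dnajc19, a part of the mitochondrial import motor. The count of 7 was 2 with library size alone, where 98 of all 13412 genes were lower. It was smaller in every fit that left out 1 library. Each of these fits left 1 library in a state, and the counts over all genes changed in them too. With the replicate block 18 were lower and 3 higher, where 7.39% and 7.35% of all genes were.

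Bag3 was at 6.31 and 6.43 CPM in the fed POMC libraries, 3.67 and 3.33 CPM in the fasted and 5.22 and 5.40 CPM after leptin. The states did not overlap (fasted against fed log2 -0.86, SE 0.166, FDR 1.00, and leptin against fasted log2 0.59, SE 0.166, FDR 1.00). Hsph1 was at 442 and 322 CPM fed and 249 and 253 CPM fasted, and Stip1 (Hop), which joins Hsp70 to Hsp90, at 167 and 128 CPM and 106 and 105 CPM. Hspe1 was at 14.9 and 10.0 CPM fed and 9.05 and 7.28 CPM fasted. Fed library 1 was the high one in these 3 genes, and without it the log2 ratios were -0.35 for Hsph1 in place of -0.60, -0.27 for Stip1 in place of -0.48 and -0.29 for Hspe1 in place of -0.60, while that of Bag3 was -0.87 in place of -0.86.

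Leptin against fasted POMC mice gave 1 chaperone at an unadjusted p under 0.05, Bag3, which was higher, where 0.857% of all genes were higher and 0.268% lower. None was left without leptin library 2 or with library size alone, and with the block 6 were higher and none lower, where 4.62% and 3% of all genes were. Leptin against fed POMC mice gave 1 higher, Dnajc19, and 3 lower, Hsph1, Hspa1a and Stip1, where the shares of all genes were 1.16% and 0.947%. Without fed library 1 there were 0 of each, without leptin library 2 there were 1 and 0, and without fed library 2 there were 1 and 5. With the block 4 were higher and 17 lower, where 8.72% and 7.1% of all genes were. Dnajc19 was at 1.45 and 2.12 CPM fed, 3.21 and 2.90 CPM fasted and 2.70 and 2.91 CPM after leptin, low levels on a counted stretch of 38.8% of its exons.

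The neuron types were then compared with each other, averaging over the 3 states. Neuron type, mouse line and preparation cannot be told apart in this comparison. Astrocyte RNA differed too. Of the 6 astrocyte genes, 5 were lower and 1 higher in AgRP libraries (median log2 ratio -0.53, 1 called lower). Outside the libraries high in these transcripts, their summed level was 2780 to 4459 CPM in AgRP and 5863 to 6821 CPM in POMC libraries. The part of astrocyte RNA in the differences below was not tested. Of the 72 chaperones 55 had higher and 17 lower levels in AgRP than in POMC libraries, with a median log2 ratio of 0.19 beside -0.018 over all genes. The called genes were 7 higher and 2 lower, where 6.51% of all genes were called higher and 6.45% lower (875 and 866 genes). With library size alone as the scale, 1230 genes were called higher and 655 lower, and the chaperones were 9 and 1.

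Dnajb5 had the clearest difference. Its 11 AgRP libraries were at 50.3 to 102 CPM (median 86.4) and its 6 POMC libraries at 31.5 to 37.0 CPM, without overlap, a 2.10-fold difference (log2 1.07, SE 0.0880, FDR 7.80e-07). Bag3 was also higher in AgRP libraries (log2 0.95, SE 0.0979, FDR 6.35e-06), as were Hspa1b (log2 1.08, FDR 0.00237) and Hspa1a (log2 0.92, FDR 9.92e-04). Dnajc21, Dnajc25 and Dnaja4, a J protein that partners Hsp70 at membranes, were higher by log2 0.75, 0.64 and 0.52.

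The lower genes were Hspa12a, a distant Hsp70 relative, and Hspb6 (Hsp20). Hspa12a was at 209, 188 and 265 CPM in fed AgRP and 292 and 334 CPM in fed POMC libraries, and over all states every AgRP library was below every POMC library (log2 -0.68, SE 0.117, FDR 5.82e-04). Hspb6 overlapped (log2 -0.51, FDR 0.0377) and lost its call without the libraries high in astrocyte transcripts (log2 -0.32), as did Dnaja4, whose log2 ratio was then 0.45. Hspa2 was called higher in that fit, which called 8 chaperones, 7 higher and 1 lower. It called 2131 of all 13431 genes, 1026 higher and 1105 lower.

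The comparison was repeated in fed libraries alone, 3 of AgRP and 2 of POMC, which called no chaperone, where 2.17% of all genes were called. At an unadjusted p under 0.05, 5 of 72 chaperones were higher and 1 lower, where 6.68% and 6.73% of all genes were. There Dnajb5 had a log2 ratio of 0.50 (SE 0.0984, FDR 0.0656) and Bag3 one of 0.61 (FDR 0.150), whereas Hspa1a and Hspa1b were at 0.039 and 0.14. All 7 TRiC subunits and all 10 co-chaperones were higher in AgRP libraries over the 3 states, with medians of 0.41 and 0.22, and of these 17 genes Bag3 alone was called. Cct2 was at 180.0, 215 and 171 CPM in fed AgRP and 164 and 152 CPM in fed POMC libraries (log2 0.41 over the states, FDR 0.00495, short of 0.5), and its AgRP libraries were all above its POMC libraries.

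**Figure D4:**
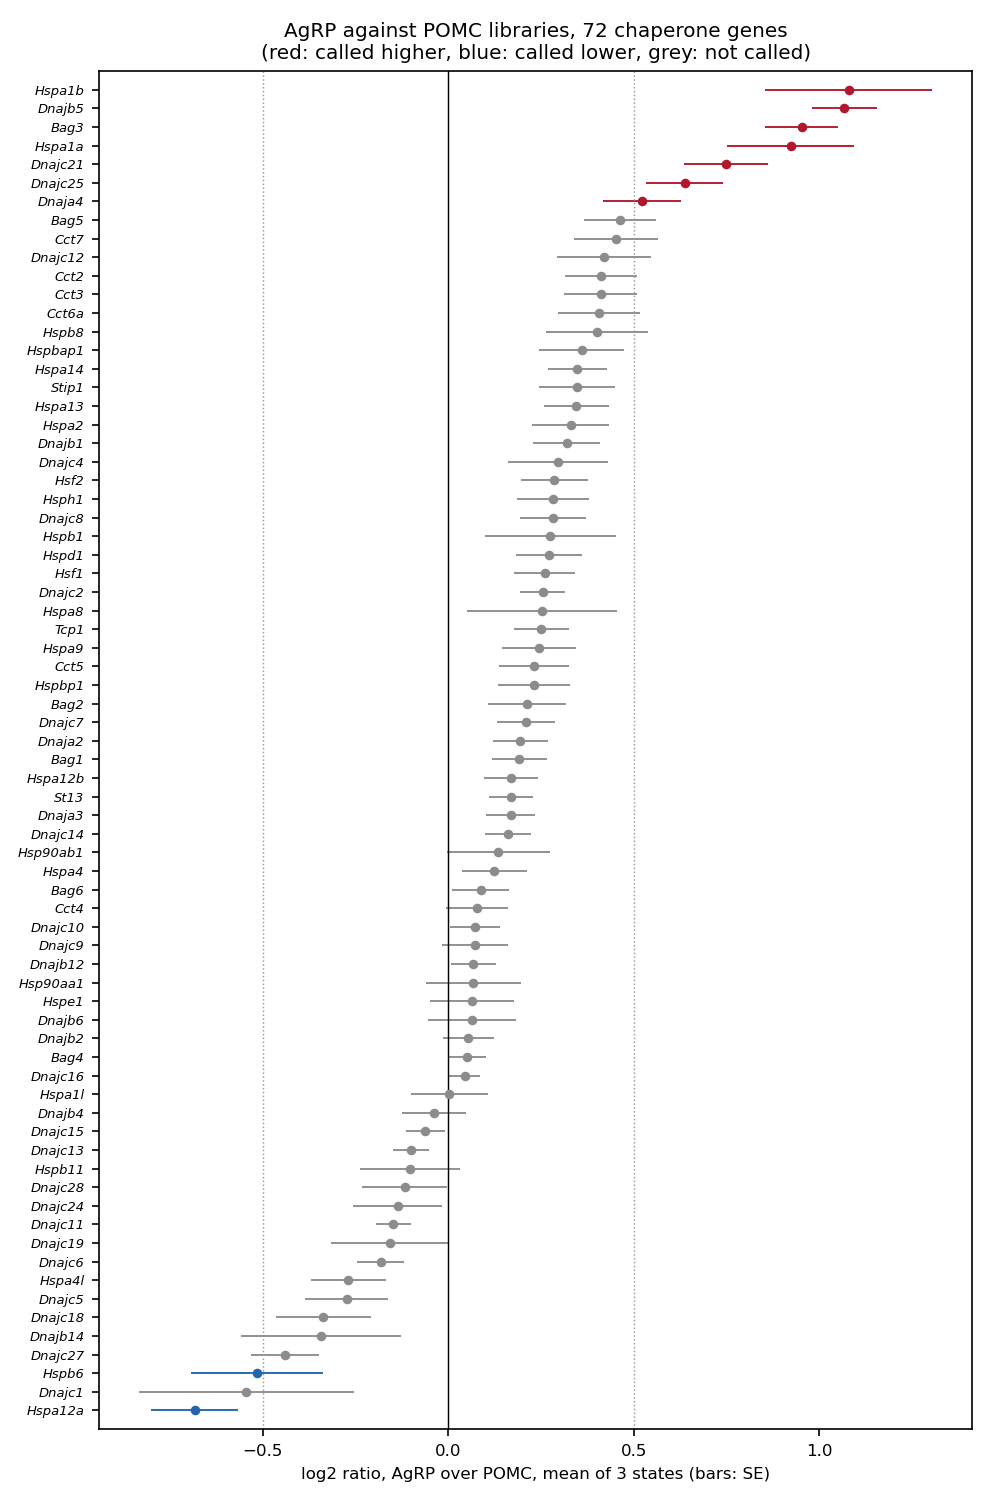
Log2 ratio of AgRP over POMC libraries, averaged over the 3 states (horizontal, bars are SE), of 72 chaperone genes in order (vertical), with called genes in red (higher in AgRP) and blue (lower). Hspa1b and Dnajb5 are the highest and Hspa12a the lowest, and 55 of the 72 genes lie to the right of 0.

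Whether fasting acted differently in the neuron types was tested by the difference of the fasting ratios. Without a block edgeR called no chaperone, where 0.164% of all genes were called. At an unadjusted p under 0.05, 12 were higher and 2 lower, where 5.63% and 3.33% of all genes were. The 12 were 7 with library size alone, where 344 of all 13435 genes were higher. Leaving out 1 library gave both smaller and larger counts. DESeq2 called 3 chaperones, Dnajb5, Hspa1a and Bag3, where it called 1.24% of all genes. In the edgeR fit without a block Dnajb5 came nearest (difference 0.99 on the log2 scale, SE 0.210, FDR 0.0726), followed by Bag3 (0.99, SE 0.235, FDR 0.109). With the replicate number as a block within each neuron type, 11 chaperones were called, 9 in the direction of AgRP, where 6.22% of all genes were called. They were Hspa1b, Hspa1a, Hspb8, Bag3, Dnajb5, Dnajc21, Hspa8, Hspa13 and Cct7, and in the other direction Dnajc19 and Dnajc28. The difference of the leptin ratios gave no chaperone without a block, where 0.0819% of all genes were called, and DESeq2 called 0. At an unadjusted p under 0.05 none was higher and 3 were lower, where 1.17% and 1.73% of all genes were, and the 3 were 1 without AgRP fasted library 1 and 5 without AgRP fasted library 4. With the block within neuron types Bag3 alone was called (-0.96, FDR 0.0355), where 0.759% of all genes were. In AgRP libraries the mean of Bag3 was 10.6 ± 0.639 CPM (SD, n = 4) after the fast and, with leptin added, 8.29 ± 1.63 CPM (SD, n = 4). In POMC libraries the fasted mean was 3.50 ± 0.240 CPM (SD, n = 2) and that with leptin 5.31 ± 0.124 CPM (SD, n = 2).

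Much of the variation among AgRP libraries followed the library number. Over the libraries numbered 1, 3 and 4, the median chaperone had 20.4% of the variance of log2(CPM + 0.5) between states and 59.3% between numbers, and the number held more than the state in 45 of 72 chaperones (62.5%, beside 62.0% of all genes). For the Hsp90 genes and TRiC the medians were 4.76% and 12.0% for the state and 88.9% and 81.6% for the number. Hspa8 and Hsp90ab1 were lowest in library 1 in all 3 states, as were Hspe1, Bag1, Dnajb6 and Hsp90aa1. In 31 of the 72 chaperones (43.1%, beside 22.9% of all genes) library 4, high in astrocyte transcripts, was the lowest in all 3 states, among them all TRiC subunits tested, Stip1, St13, Bag3, Hsph1 and Hspa9. It was the highest in 9 (12.5%, beside 20.2%), among them Dnajc5, Dnajc1, Dnajb14 and Hspa12a. Dnajb5 and Hspb8 had 84.4% and 80.8% of their variance between states, but their calls between states in these same libraries made high shares likely. Dnajc2, Dnajc10 and Dnajc25, which were not called between states in the reported fit, had 80.4%, 75.6% and 70.4%. With the replicate block Dnajc25 was called in fasted against fed libraries.

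**Figure D5:**
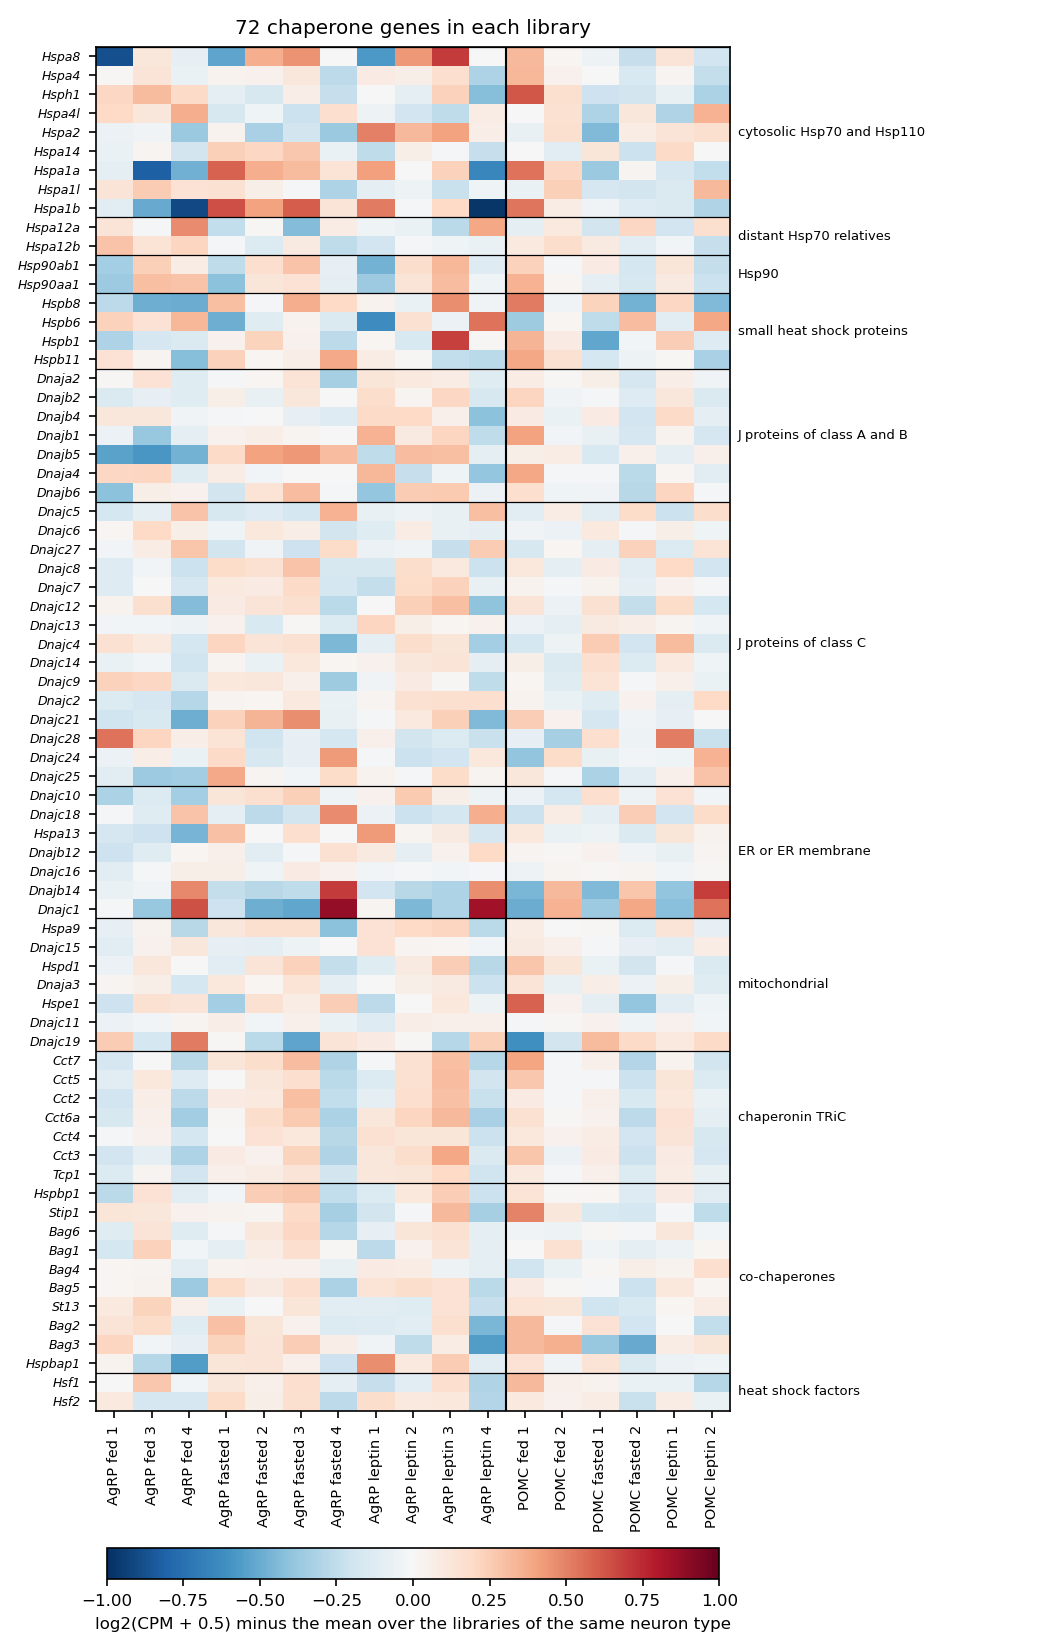
Each cell is the log2(CPM + 0.5) of a chaperone gene (rows, by role) in a library (columns) minus the mean over the libraries of the same neuron type, on a colour scale from low to high. The AgRP libraries numbered 4 are lower than the other libraries of their state in the TRiC rows, and library 1 is low for Hspa8, Hsp90aa1 and Hsp90ab1 in each state.

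The rest of the pathway was read from a list of 32 further genes, such as prefoldins, peptidyl-prolyl isomerases, Hsp90 co-chaperones and mitochondrial proteases, of which 31 were tested. In fasted against fed AgRP neurons 1 was called higher and none lower, the Hsp90-binding isomerase Fkbp5, an established target of the glucocorticoid receptor (log2 0.84, SE 0.196, FDR 0.0324). Leptin against fasted called none, and with the block Fkbp5 was lower (log2 -0.67, FDR 4.44e-04). Leptin against fed called 1, Tomm34, a co-chaperone of mitochondrial import, which was lower (log2 -0.53, FDR 0.00519). In POMC neurons none was called. Of the 31 genes, 4 were called higher in AgRP than in POMC libraries, where 6.51% of all genes were, among them the prefoldin genes Pfdn5, Pfdn2 and Pfdn6.

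The 5 ER chaperones that the rule left out had positive log2 ratios in fasted against fed AgRP neurons, with a median of 0.46, and Hspa5 (BiP) was called (log2 0.97, SE 0.158, FDR 0.00541). In POMC neurons all 5 had ratios below 0, with a median of -0.33, and none was called.

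Chromatin at the chaperone promoters was read in the AgRP nuclei. Peaks within 1 kb of a start site were found for 79 of the 84 genes, 94 peaks in all, of which 92 peaks of 78 genes were tested. In fasted against fed nuclei 3 of the 92 were called (3.26%), where 6.74% of the promoter peaks of all coding genes and 27% of all peaks were. At an unadjusted p under 0.05, 2 were higher and 17 lower, where 23.9% and 16.1% of all peaks were. The median log2 ratio of the 92 was -0.22, beside -0.040 over all peaks. Of the 102237 peaks tested, 14950 were promoter peaks of coding genes. The median and the unadjusted p counts were not taken over those promoter peaks alone. Whether chaperone promoters differed from other promoters in these measures was not tested. Leptin against fasted called none (0.0%, with 0 at an unadjusted p under 0.05 and 0 by DESeq2), where 0.375% of promoter peaks and 3.08% of all peaks were called, and the median was -0.031.

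The peak at the start of Cct5 (mm10, chr15:31601231-31602879) was at 64.1 and 65.5 CPM in fed, 40.4 and 43.0 CPM in fasted and 40.6 and 48.8 CPM in leptin nuclei. It was lower in fasted nuclei without overlap (log2 -0.64, SE 0.156, FDR 0.00504), while Cct5 RNA was at 172, 201 and 171 CPM fed and 186, 202, 209.6 and 155 CPM fasted, with overlap. The peak at Hsf2 (chr10:57485925-57487000) was at 93.7 and 84.2 CPM fed and 62.7 and 62.5 CPM fasted (log2 -0.50, FDR 0.00836), a call that held in 1 of 6 fits without 1 library. A peak near the start of Hspb7 (chr4:141419968-141420284) was higher, at 2.11 and 4.40 CPM fed and 8.86 and 10.3 CPM fasted (log2 1.44, SE 0.353, FDR 0.00497). It lay within 1 kb but not within 200 bases of the start, and Hspb7 RNA was at most 0.184 CPM in any library.

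The promoters of the genes that rose in RNA gave no call. The Dnajb5 peak, over the stretch printed above, was at 95.5 and 115 CPM fed and 112 and 107 CPM fasted (log2 0.048, SE 0.119), and the Hspb8 peak at 10.4 and 9.75 CPM and 11.2 and 9.66 CPM (log2 0.053, SE 0.278). The fed and fasted libraries overlapped in both. The peak shared by Hspd1 and Hspe1, which holds the run of 4 units, was at 120.5 and 138 CPM fed and 110.4 and 98.0 CPM fasted, with a log2 ratio of -0.32 (SE 0.110, FDR 0.0375) that fell short of 0.5.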

How the data were processed

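The authors depleted TRAP RNA of ribosomal RNA, made libraries without strand information, aligned reads to mm10 with HISAT2 and counted them with featureCounts on an annotation trimmed to minimise overlapping transcripts. ATAC-seq reads were aligned with Bowtie2, peaks were called with MACS2 and reads were counted per merged peak. The values used are the raw counts deposited by the authors. Not used were the deposited log2 CPM tables of these libraries, the CUT&RUN peak lists and the ATAC-seq of sorted AgRP-positive against AgRP-negative nuclei. RNA of whole ARC was not analysed here. Every value column of the count tables used belonged to a labelled sample.

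Counts were fitted in R 4.3.3 with edgeR 4.0.16 (TMM scaling, mean over 1 CPM, quasi-likelihood F test, Benjamini-Hochberg adjustment over all genes or peaks tested). Calls needed an FDR below 0.05 together with a log2 ratio beyond 0.5 either way. AgRP libraries of the 3 states shared a fit, as did POMC libraries and ATAC-seq libraries, and a fit of all 17 RNA libraries gave the comparisons between neuron types. CPM values are scaled by TMM over these 17 libraries, and ATAC-seq CPM over its own. SEs are those implied by the F statistic. Libraries are separate pools of mice. DESeq2 1.42.0 was an alternative, with library size alone, no filter on low counts, an older robust quasi-likelihood fit, each library left out, and a block for the library number. The scripts were tested on simulated counts.

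Residuals from the state means of same-numbered AgRP libraries had correlations of 0.536 to 0.814 (10 pairs) and those of other libraries -0.642 to 0.642 (30 pairs). For POMC libraries they were 0.733 to 0.770 (6 pairs), where with 2 libraries per state the values mirror each other, and for ATAC-seq -0.0023 to 0.165. The number was therefore read as pairing the RNA libraries within a neuron type and not the ATAC-seq libraries. It does not pair mice of the AgRP and POMC lines.

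Named were the called genes, a list of 42 chaperones by role, the genes of ER proteins and, in each comparison, the 2 tested genes with the lowest p each way. The members and all lists were chosen with earlier results of these data known. Fits that leave out libraries high in astrocyte transcripts, and the block within each neuron type, were added after the data were seen. Promoter and coding sequences come from RefSeq (GRCm38.p6) and the GENCODE transcripts of the same build.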

Additional observations from a re-analysis of the deposited data

Results flagged for a closer look

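In 12 of 120 groups of 4 AgRP libraries, 1 library stood apart from the other 3 by Dixon's criterion, which chance meets in about 1 of 20 groups. In 9 of the 12 it was a library numbered 4, where astrocyte transcripts were high. The share of such groups over all genes was not counted. Library 4 was the lowest in all 3 AgRP states in 22.9% of all genes and the highest in 20.2%, so it stood apart beyond the chaperones. Dnajc5, the synaptic vesicle J protein, was at 899 CPM in fasted library 4 beside 628 to 646 CPM, and at 873 CPM in leptin library 4 beside 672 to 682 CPM. Dnajb14, of the ER membrane, was at 102 CPM in fasted library 4 beside 51.7 to 52.9 CPM and at 86.3 CPM in leptin library 4 beside 50.6 to 54.6 CPM, and Dnajc1, another ER J protein, at 14.6 CPM in fasted library 4 beside 5.24 to 6.64 CPM. Lower in library 4 were Hspa9, the mitochondrial Hsp70, at 159.8 CPM in fasted mice beside 229 to 237 CPM, Bag4 at 155 CPM in fasted mice beside 168 to 169 CPM, and, after leptin, Cct4 at 139 CPM beside 176 to 179 CPM and Bag5 at 38.3 CPM beside 50.8 to 52.2 CPM. The part of astrocyte RNA in these values was not tested. In the other 3 groups, all of leptin libraries, Dnajc2 was at 24.0 CPM in library 1 beside 26.2 to 26.6 CPM, Hspb1 at 3.06 CPM in library 3 beside 1.50 to 1.75 CPM, and Hspb8 at 62.9 CPM in library 3 beside 43.2 to 46.6 CPM.

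The effect of fasting differed between AgRP and POMC neurons in 11 chaperones when the library number entered as a block within each neuron type (edgeR). That fit, added after the data were seen, called 6.22% of all genes, beside 0.164% without a block. The difference, the log2 ratio of AgRP minus that of POMC neurons, was 1.61 for the stress-inducible Hspa1b (FDR 0.00586) and 1.52 for its copy Hspa1a (FDR 0.00755), 1.07 for Hspb8 (FDR 6.11e-04) and 1.01 for its partner Bag3 (FDR 0.00525). It was 0.94 for Dnajb5 (FDR 0.00153), 0.78 for Dnajc21 (FDR 0.00541), 0.57 for Hspa8 (FDR 0.00885), 0.55 for Hspa13 (FDR 0.00368) and 0.50 for Cct7 (FDR 0.00817). It was negative for Dnajc19 (-1.21, FDR 0.00769) and Dnajc28 (-0.62, FDR 0.0267). The effect of leptin against fasting differed for Bag3 (-0.96, FDR 0.0355), where 0.759% of all genes were called. Without the block edgeR called none of these 12 differences, and DESeq2 called those of fasting for Hspa1a, Dnajb5 and Bag3.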

How the results depend on the processing

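The number of chaperones called higher in fasted AgRP neurons, 2 in the reported fit, was 6 with the replicate block, 5 with DESeq2, 4 without the libraries numbered 4, 1 with library size alone and 1 to 5 when 1 library was left out. Over all genes, 378 of 13401 were called higher in the reported fit. The first 4 of these settings called 590, 446, 404 and 148 genes higher. For leptin against fasted the 1 call was 0 with library size alone, 0 without the filter on low counts and 0 to 1 when 1 library was left out. Genes called higher over all genes were 160 in the reported fit, 107 with library size alone and 184 without the filter. For leptin against fed the 3 calls were 5 with the replicate block, 1 without the libraries numbered 4, 1 without the filter, 0 with library size alone and 0 to 3 when 1 library was left out. Over all genes, 500 were called higher in the reported fit and 715, 519, 450 and 194 under the first 4 of these settings. The 9 calls between AgRP and POMC libraries were 0 in fed libraries alone and 7 to 11 when 1 library was left out. Over all genes the calls were 1741 in the reported fit and 292 in fed libraries alone. The difference of the fasting effects gave 3 calls with DESeq2, 8 with the replicate number as a block across both neuron types and 11 with the block within each type, in place of 0, and that of the leptin effects 1 in place of 0 with the block within each type. Over all genes the fasting calls in these fits were 166, 378 and 836 in place of 22, and the leptin calls 102 in place of 11. The block moved no other count of called chaperones or promoter peaks by more than 1.5 times. In POMC neurons 0 chaperones were called under every setting tried. The count of promoter peaks called in fasted nuclei, 3 in the reported fit, moved both ways when 1 library was left out. Those fits leave 1 library in a state, and their calls over all peaks changed too, so their counts are not read here. None was called after leptin. Over all results and alternatives, 1009 values kept their direction and their side of the threshold, 44 passed it newly, 67 no longer passed it and 0 reversed. The cause of these changes was not tested. With 2 libraries per state, POMC and ATAC-seq fits have few degrees of freedom, and low levels limit Hspa1b, Hspb1 and Dnajc19.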
